A study of Ecsenius pulcher with 24 samples.

Results

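The features described here are 125 assembled RNA features whose level in tail muscle of the reef blenny *Ecsenius pulcher* was higher in every one of 12 fish sampled at the acute time point than in any of 12 fish sampled at the post-hypoxia time point. They were chosen from 518956 features by that separation and by a mean of at least 5 CPM (counts per 1000000 counts of the library) over the acute fish. The rule then drops the 100 most abundant features, which removed 0 candidates, and allows up to 150 members; 125 qualified, so all of them are members and the limit did not act. Rank is by the difference in mean log2(CPM + 0.1) between the time points. These 125 are 0.691% of the 18096 features with that mean level. Since these values chose the members, the acute to post difference is given below as a description, with no test.

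Each library was treated as a separate fish, and came from a section of the front of the tail with the skin removed. The 4 groups of 6 fish were acute control, acute hypoxic (sampled during low oxygen), post control and post hypoxic (sampled after reoxygenation and recovery). Hypoxic and control fish of a time point were time-matched, and the exposure followed oxygen profiles measured on local reefs. The sources used here give no strain, age or sex. The fish of the 2 time points were treated as different animals, so no change within a fish was measured. Library names begin with L at the acute and with F at the post point, so that sampling time and any batch that follows those names cannot be told apart. Each library summed to between 31085706 and 43603402 estimated counts. P-values below set differences between groups against the spread between fish within groups. In the fit of all 24 libraries this spread was estimated once per feature, for both time points together.

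Fish skeletal muscle is made up mostly of fast white fibres, with slower red fibres in a thin outer band. During low oxygen, cells generally save ATP, turn to anaerobic glycolysis and change transcription through oxygen-sensitive factors. Here the features are clusters of RNA sequences assembled from the reads without a genome, and their IDs give the assembly cluster and component. The deposited table does not pair these IDs with gene names, so no role, pathway or cell type can be given to a member, muscle markers could not be checked, and several features can be pieces of a single transcript. In such bulk tissue, fewer cells of a type and less RNA per cell cannot be told apart.

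The members ranged from features nearly absent in post fish to features that were about 2 times lower there. Of the 125, 31 were at least 16-fold higher in acute fish by mean CPM (including 1 with no counts in post fish), 40 were 4- to 16-fold higher, 52 were 2- to 4-fold higher and 2 were less than 2-fold higher. The median fold was 4.32 and the lowest 1.92. Only TRINITY_DN49842_c0_g1 had 0 counts in all 12 post libraries, whereas 109 members had counts in every post library and 42 still averaged 5 CPM or more there. A description as switched off therefore holds for few of them: 23 averaged less than 1 CPM in post fish. The plot of mean levels shows this spread.

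**Figure D1:**
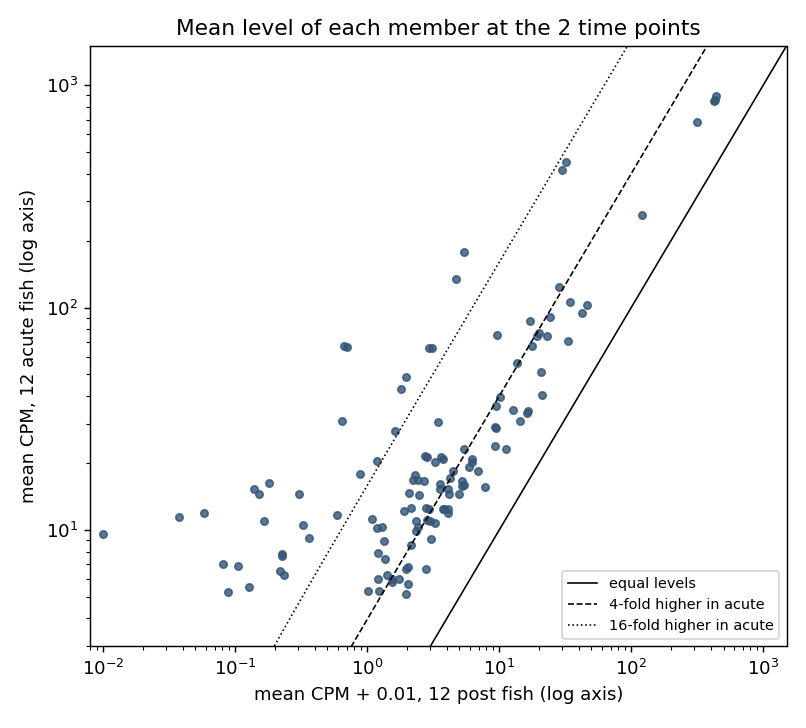
Mean CPM of each of the 125 members over the 12 acute fish (vertical) against the mean over the 12 post fish plus 0.01 (horizontal), both on log axes, with curves for equal levels, 4-fold and 16-fold. All points lie above equal levels because the rule required it; 31 lie beyond 16-fold, and 54 lie under 4-fold.

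TRINITY_DN2114_c1_g1 held the first rank. Its level ran from 38.5 to 65.9 CPM in acute controls (median 43.4) and from 68.3 to 109.8 CPM in acute hypoxic fish (median 82.8). After recovery the controls ran from 0.217 to 1.52 CPM (median 0.668) and the hypoxic fish from 0.0819 to 1.09 CPM (median 0.488). The post fish of both treatments thus lay in the same low range, while the acute groups did not overlap each other in CPM. By mean CPM it was 103-fold higher in acute fish, 61.3-fold among controls and 159.8-fold among hypoxic fish.

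TRINITY_DN8517_c0_g1, at rank 3, had nearly the same levels. It lay between 36.0 and 59.0 CPM in acute controls (median 43.2), between 69.0 and 113 CPM in acute hypoxic fish (median 80.6), between 0.161 and 1.02 CPM in post controls (median 0.562) and between 0.109 and 1.38 CPM in post hypoxic fish (median 0.994). The acute fish that was highest, hypoxic replicate 4, was the same for both features.

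TRINITY_DN603_c2_g1 and TRINITY_DN603_c1_g1, at ranks 2 and 5, come from neighbouring components of the same assembly cluster. The first lay at 8.49 to 19.8 CPM in acute controls (median 13.8) and 7.28 to 10.9 CPM in acute hypoxic fish (median 8.92), and 8 of the 12 post libraries held none of it. The highest post value was 0.193 CPM in control replicate 5, and the 12 post libraries together held 11 counts. The second lay at 5.63 to 23.5 CPM in acute controls (median 13.7) and 6.81 to 13.2 CPM in acute hypoxic fish (median 8.92), with 20 counts over all post libraries and at most 0.143 CPM. Means were 412-fold and 249-fold higher in acute fish, the larger being the highest ratio among members with any post count; with so few counts these ratios are imprecise.

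TRINITY_DN49842_c0_g1, at rank 4, was the member without post counts. It ran from 5.45 to 22.6 CPM in acute controls (median 8.22) and from 1.05 to 14.8 CPM in acute hypoxic fish (median 8.61), with the lowest value in hypoxic replicate 1. Against a floor of 3 counts over the 12 post libraries together (0.00746 CPM) its acute mean was at least 1283-fold higher. It was among the 3 most variable members in acute fish, with a within-group SD of 1.06 on the log2 scale.

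**Figure D2:**
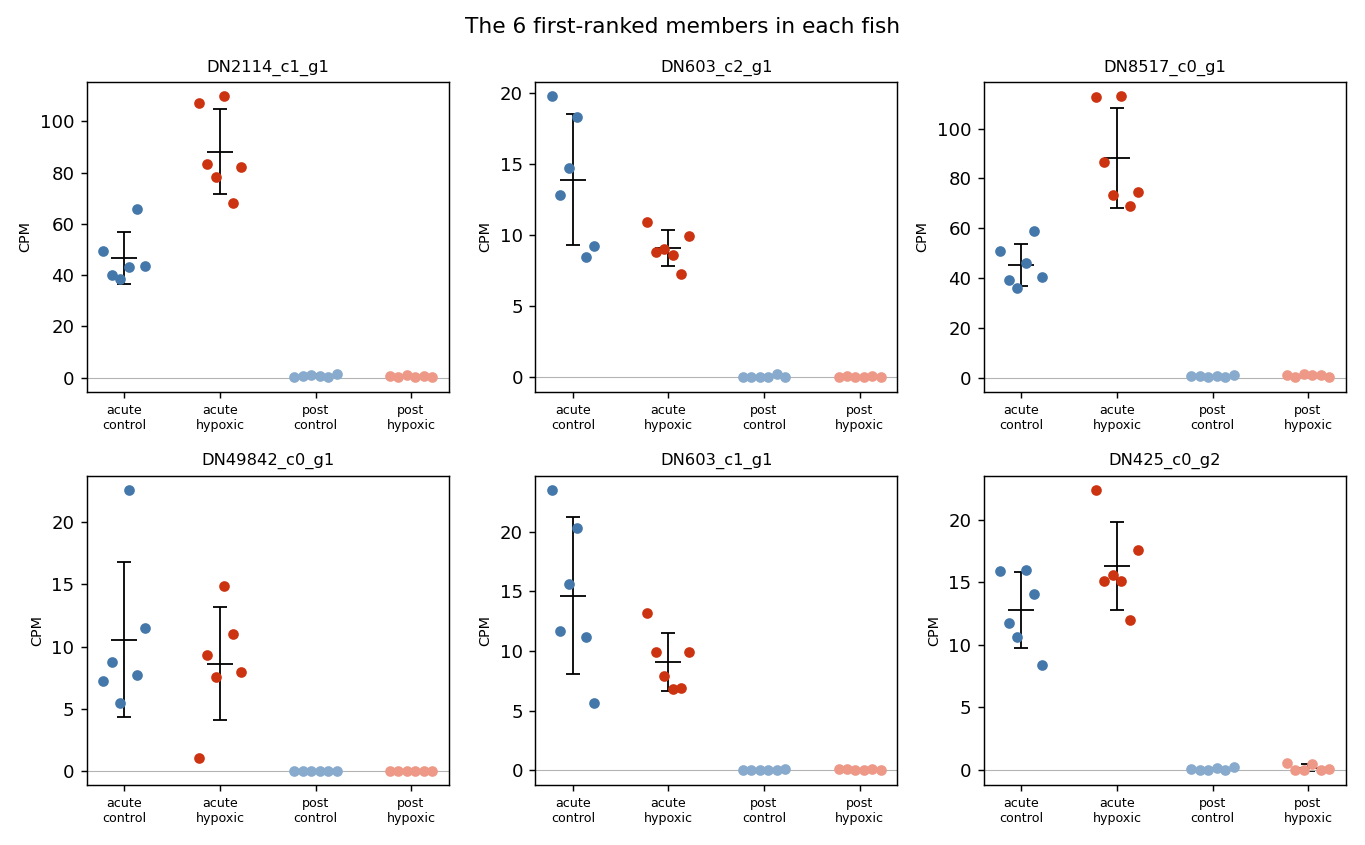
CPM of the 6 first-ranked members in each fish, with 1 point per fish, the group mean and the SD (n = 6) as bars. Post fish lie at or near 0 in all 6 panels, and in the panels of TRINITY_DN2114_c1_g1 and TRINITY_DN8517_c0_g1 the acute hypoxic fish lie above the acute controls in CPM. With the scaling of libraries described below, these groups overlapped for TRINITY_DN8517_c0_g1, at 41.9 to 66.7 in controls and 65.1 to 145.9 in hypoxic fish.

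The other members of the first 10 were TRINITY_DN425_c0_g2, TRINITY_DN2287_c0_g1, TRINITY_DN37_c1_g1, TRINITY_DN2213_c4_g1 and TRINITY_DN2396_c1_g1. Their acute means were 14.6, 15.2, 16.3, 30.8 and 10.9 CPM and their post means 0.141, 0.128, 0.171, 0.631 and 0.154 CPM. Each was missing from 1 to 4 of the 12 post libraries, so their post levels rest on 53 to 257 counts in all.

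The most abundant members stood near the end of the ranking. TRINITY_DN13829_c0_g1, at rank 124, had means of 1013 ± 389.9 CPM in acute controls and 782 ± 168 CPM in acute hypoxic fish, against 439 ± 53.8 CPM and 435 ± 45.7 CPM in the control and hypoxic fish of the post point (SD, n = 6 each). Its lowest acute fish and its highest post fish were both at 518 CPM, so it entered the set by a ratio of 1.00. TRINITY_DN2130_c9_g1, at rank 118, followed it across the acute fish at 0.731 to 0.859 times its level (r = 0.992 after removal of group means, n = 12). TRINITY_DN1471_c0_g1 and TRINITY_DN1471_c0_g2, at ranks 120 and 121, averaged 851 and 861 CPM in acute fish and 423 and 434 CPM in post fish. Both had among the smallest spreads in acute fish, with within-group SDs of 0.183 and 0.189 log2 units.

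TRINITY_DN3264_c0_g1 was an abundant member with a wider separation. It lay at 265 to 539 CPM in acute controls (median 478), 327 to 679.8 CPM in acute hypoxic fish (median 403), 15.95 to 37.5 CPM in post controls (median 27.1) and 17.0 to 58.9 CPM in post hypoxic fish (median 40.1). Acute fish averaged 14.1 times the post fish, and the lowest acute fish was 4.50 times the highest post fish. TRINITY_DN7220_c0_g1 ran at 0.884 to 0.961 times its level in the acute fish.

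The last 3 members by rank were TRINITY_DN20849_c1_g1, TRINITY_DN13829_c0_g1 and TRINITY_DN7906_c0_g2, with acute means 2.00, 2.05 and 1.92 times the post means. The separation was narrow for many members: in 23 of 125 the lowest acute fish was under 1.1 times the highest post fish, and in 43 it was at least 2 times as high or the post fish were at 0. Just outside, TRINITY_DN31252_c0_g2 was left out because its lowest acute fish, at 10.81 CPM, lay below its highest post fish, at 10.82 CPM. TRINITY_DN12369_c0_g1 separated by a ratio of 4.16 but averaged 4.91 CPM, under the level minimum, against 5.13 CPM for TRINITY_DN69391_c0_g1, the lowest member.

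Scaling of libraries bears on this set. In CPM the median over the 65664 features tested was 0.27 log2 units lower in acute than in post fish, so the members were chosen against that shift. Trimmed mean of M-values (TMM) scaling removes such a shift (median 0.03). With it, all 125 members were lower on average in post fish, and in 115 of 125 every acute fish lay above every post fish. The members were chosen on these same counts, so this is no test of the set. The share of all features tested that separated in this way with TMM scaling was not counted. The same rule run in the other direction, for features higher in every post fish, passed 317 features, or 1.49% of those with a mean of at least 5 CPM in post fish.

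**Figure D3:**
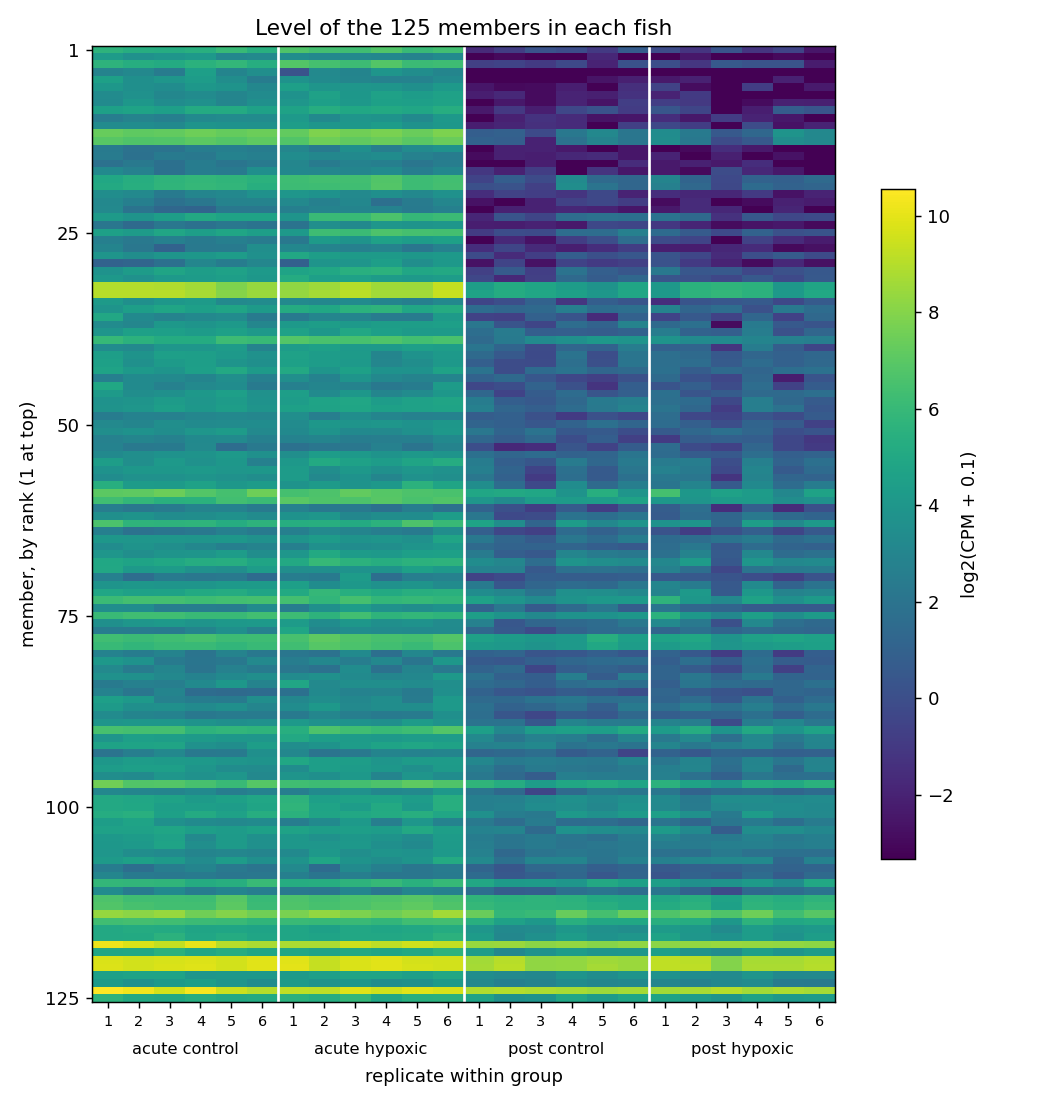
Level of the 125 members, as log2(CPM + 0.1), in each of the 24 fish; rows are members in order of rank, columns are replicates 1 to 6 of each group. The rows darken from acute to post fish by construction, most at the top; post hypoxic replicate 3 holds the lowest post value of 36 members, ties at 0 included.

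By fish, the members together took 0.649% to 0.902% of all counts in acute libraries and 0.200% to 0.297% in post libraries. The mean log2(CPM + 0.1) over the members was 4.29 ± 0.09 (SD, n = 6) in acute controls, 4.52 ± 0.12 in acute hypoxic fish, 1.57 ± 0.31 and 1.58 ± 0.38 in the control and hypoxic fish of the post point. The post fish differed among themselves more than the acute fish on this scale. The rule chose members by their CPM in these same fish, so it bears on this comparison. Post hypoxic replicate 3 was lowest at 0.98 and post control replicate 3 next at 1.12, while post hypoxic replicate 1 was highest at 1.97. Post hypoxic replicates 4 and 1 held the highest post value for 24 and 23 members, and post hypoxic replicate 3 held the lowest for 36, ties at 0 included. Post hypoxic replicate 4 is also the library whose deposited values are all whole numbers. In CPM, acute hypoxic replicate 1 held the highest acute value for 27 members, the most of any acute fish, and the lowest for 11.

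On the TMM scale the acute means were 4.57 ± 0.31 in controls and 4.59 ± 0.26 in hypoxic fish (SD, n = 6), and the post means were 1.44 ± 0.12 and 1.44 ± 0.32. Among controls the acute fish then had the larger SD, and among hypoxic fish the post fish did. The order of the fish changed with this scaling. Acute hypoxic replicate 1 then had the lowest mean of the hypoxic fish, at 4.21, and acute control replicate 2 the highest of all, at 5.02. Post hypoxic replicate 3 was still the lowest, at 0.97, followed by post hypoxic replicate 5 at 1.17 and post control replicate 5 at 1.23, while post control replicate 3 stood at 1.44. Within groups the median SD of a member over TMM-scaled log2 values was 0.41 in acute and 0.66 in post fish, against 0.51 and 0.67 over all features tested.

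Some pairs of members varied together from fish to fish. Of 7750 possible pairs of members, 22 had a correlation of at least 0.95 over the 12 acute libraries after removal of group means. This and the other correlations of single pairs used log2(CPM + 0.1) without TMM scaling. The 22 pairs took in 41 members, and 17 of the 22 joined features of different components. The highest was 0.998, between TRINITY_DN7220_c0_g1 and TRINITY_DN3264_c0_g1. In the 12 post libraries, which the pairs were not chosen on, 14 of the 22 had a correlation of 0.9 or more and the lowest was 0.62. The share of pairs at these levels over all features tested was not counted. The mean correlation over all pairs of members in acute fish was 0.32 with TMM scaling and 0.05 without it, against 0.00 and 0.19 over all features tested, so its size depends on the scaling.

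The 125 members fell into 108 assembly components, of which 15 held more than 1 member and 2 held 3. TRINITY_DN425_c0 and TRINITY_DN956_c0 held 3 each, and their members had similar acute means in pairs. Of these pairs, only TRINITY_DN425_c0_g1 and TRINITY_DN956_c0_g1 reached a correlation of 0.95 in the acute fish (r = 0.951). TRINITY_DN425_c0_g1 and TRINITY_DN956_c0_g1 averaged 17.9 and 20.4 CPM in acute and 0.873 and 1.18 CPM in post fish, and both were highest in acute hypoxic replicate 1, at 32.3 and 36.3 CPM. TRINITY_DN425_c0_g2 and TRINITY_DN956_c0_g3 averaged 14.6 and 14.4 CPM in acute and 0.141 and 0.295 CPM in post fish. TRINITY_DN425_c0_g3 and TRINITY_DN956_c0_g2 averaged 16.8 and 16.5 CPM in acute and 2.43 and 2.67 CPM in post fish. Within these 2 components the features differed more in post level than in acute level.

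Another component, TRINITY_DN2213_c4, held TRINITY_DN2213_c4_g1 and TRINITY_DN2213_c4_g3. The second lay at 140.6 to 182 CPM in acute controls (median 157.5), 147.9 to 232 CPM in acute hypoxic fish (median 202), 0.778 to 8.78 CPM in post controls (median 3.05) and 1.38 to 14.3 CPM in post hypoxic fish (median 7.05). Post fish were spread over a much wider range, relative to their level, than acute fish, and the lowest post value of each treatment was in replicate 3. TRINITY_DN17654_c2_g1 kept to the same pattern, with r = 0.984 in acute and 0.959 in post fish (n = 12 libraries each).

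Besides the members, their components held 56 other tested features, in 36 components. Of these, 35 (62.5%) had a higher mean log2(CPM + 0.1) in acute fish, against 30.5% of all features tested, and their median difference was 0.24. In 5 of the 56 every acute fish lay above every post fish, as it did by the rule in the members and in 0.25% of all features tested; these 5 missed the level minimum. In 0 of the 56 did every post fish lie above every acute fish, against 0.699% of all features tested. With so few features, 0 cannot be told apart from that share. Features of a component can be pieces of the same transcript as a member, so the 56 are not independent of the members or of each other. The widest differences, named after their values were seen, were 4.79 log2 units for TRINITY_DN2287_c0_g2 and 4.78 for TRINITY_DN425_c0_g4, which missed the level minimum with acute means of 3.33 and 3.02 CPM. The lowest was -1.20 for TRINITY_DN8517_c0_g2, a neighbour of the third-ranked member, with means of 0.795 CPM in acute and 1.97 CPM in post fish.

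The rule treated hypoxic and control fish alike, so their comparison within a time point was open to a test. A feature that hypoxia lowered into the post range could not enter the set. All 125 members passed the filter on low counts, but 17 of them did so only through their acute level and would not pass on the post libraries alone. During hypoxia, 0 of the 125 members passed the quasi-likelihood test of edgeR at an adjusted p of 0.05 (smallest adjusted p 0.778), where 14 of 65664 features tested passed (0.0213%). Log2 fold changes of the members ran from -1.01 to 1.49 with a median of -0.06, against 0.02 over all features, and 55 of 125 were above 0. At an unadjusted edgeR p under 0.05, 11 members were higher and 4 lower (12.0% of members), against 2.21% and 1.39% of all features (3.6% in all). That total of 15 members was 8 without acute hypoxic replicate 4, 9 without acute control replicate 1, 7 with a replicate block and 31 in a fit of the 12 acute libraries alone, where 3.11%, 3.73%, 2.88% and 6.73% of all features were past the same threshold. Members that vary together are not independent of each other. Every member averaged at least 5 CPM in acute fish, as did 18096 features of the whole table, while 65664 features were tested. The shares over all features, here and in the comparisons below, were not matched for this level. DESeq2 also called 0 members (0.102% of features called), with 18 at an unadjusted p under 0.05 (4.42% of all features). The limma voom fit put 30 members higher and 9 lower at an unadjusted p under 0.05 (9.59% of all features) and called 3 members as higher (0.177% of features called): TRINITY_DN5209_c1_g1, TRINITY_DN5209_c1_g2 and TRINITY_DN361_c0_g1. In CPM without TMM scaling the median of all features was 0.20 log2 units higher in acute hypoxic fish and that of the members 0.14, so directions in CPM alone carry this shift.

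The smallest p values belonged to TRINITY_DN5209_c1_g1 and TRINITY_DN5209_c1_g2. In TMM-scaled CPM the first lay at 3.76 to 5.42 in acute controls (median 4.65) and at 3.23 to 20.4 in acute hypoxic fish (median 14.04). Hypoxic replicates 2 to 6 lay above every control and replicate 1 below every control. The log2 fold change was 1.48 (SE 0.42, unadjusted edgeR p 0.00167, adjusted p 0.778). With limma voom it was 1.57 (adjusted p 0.00196), and without acute hypoxic replicate 1 the edgeR value was 1.68 (adjusted p 0.162).

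TRINITY_DN5209_c1_g2 showed the same order of hypoxic fish at a higher level. It lay at 24.3 to 34.4 TMM-scaled CPM in acute controls (median 29.1) and at 15.8 to 133 in acute hypoxic fish (median 83.5), with a log2 fold change of 1.49 (SE 0.44, adjusted edgeR p 0.817). Without acute hypoxic replicate 1 it was 1.70 (adjusted edgeR p 0.160). TRINITY_DN361_c0_g1 correlated with both (r = 0.980 and 0.981 over 12 acute libraries, without TMM scaling), so the 3 features called by voom are not independent evidence. Its log2 fold change was 1.49 (SE 0.62), and that of TRINITY_DN9735_c0_g1 was 1.33 (SE 0.52). Neither passed with edgeR, and both were named after their values were seen.

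Acute hypoxic replicate 1 stood apart in several members. For 7 members (5.6%) the hypoxic replicates 2 to 6 lay above all 6 acute controls in TMM-scaled CPM while replicate 1 did not, against 0.889% of all features tested. Without that scaling there were 11 such members (8.8%, against 0.752%). No such count was made with any other hypoxic fish set aside. The 7 are not independent. TRINITY_DN5209_c1_g1, TRINITY_DN5209_c1_g2 and TRINITY_DN361_c0_g1 varied together (r = 0.967 to 0.981 over 12 acute libraries, without TMM scaling). TRINITY_DN9735_c0_g1 and TRINITY_DN89105_c0_g1 did so too (r = 0.954, likewise without TMM scaling). In TMM-scaled CPM, TRINITY_DN2114_c1_g1 was the only member with all 6 hypoxic fish above all 6 controls (0.213% of all features tested). It lay at 69.2 to 142 against 44.8 to 67.9, and there replicate 1 stood at 92.3, above the hypoxic median of 87.9. Its log2 fold change was 0.73 (SE 0.38, unadjusted edgeR p 0.0649), so it did not pass even before adjustment. Without TMM scaling 10 members (8.0%) had non-overlapping groups, against 0.327% of features. In 0 members did all hypoxic fish lie below all controls on either scale, against 0.108% of features with TMM scaling and 0.0244% without.

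The lower members by smallest p were TRINITY_DN8432_c3_g1 and TRINITY_DN603_c1_g1. The first lay at 7.74 to 22.2 TMM-scaled CPM in acute controls (median 19.3) and at 7.73 to 9.68 in acute hypoxic fish (median 8.64). Only control replicate 5 lay within the hypoxic range; the log2 fold change of -1.01 (SE 0.37) did not pass (adjusted edgeR p 1.00). TRINITY_DN603_c1_g1 ran from 7.98 to 26.5 in controls (median 19.0) and from 7.03 to 11.4 in hypoxic fish (median 9.28), with a log2 fold change of -0.91 (SE 0.40), which did not pass either; controls 5 and 6 overlapped the hypoxic fish.

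**Figure D4:**
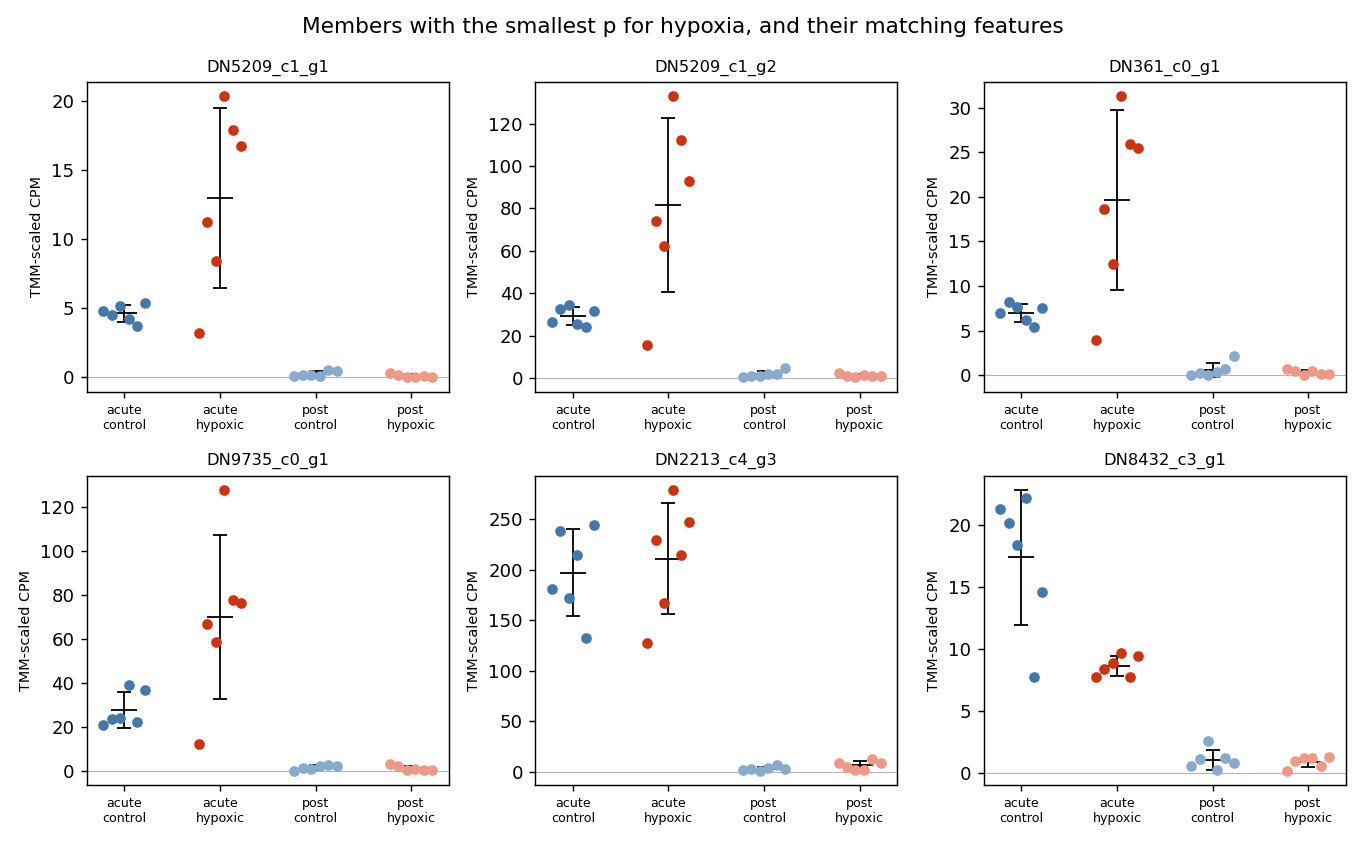
TMM-scaled CPM of 6 members in each fish, with 1 point per fish in order of replicate, the group mean and the SD (n = 6). In the panels of TRINITY_DN5209_c1_g1, TRINITY_DN5209_c1_g2, TRINITY_DN361_c0_g1 and TRINITY_DN9735_c0_g1, acute hypoxic replicate 1, the leftmost point of its group, lies below every acute control and the other 5 lie above; no member passed the edgeR test.

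After recovery, 0 of 125 members passed edgeR (smallest adjusted p 1.00), as did 0 of all features tested, and DESeq2 (0.0107% of features called) and voom (0.0%) called 0 members. At an unadjusted edgeR p under 0.05, 2 members were higher and 5 lower, where 1.4% and 2.43% of all features were (3.84% in all). Of the 5 lower members, 4 are among the 17 that were tested only because of their acute level. Among the 108 members that also pass on the post libraries, 2 were higher and 1 lower (2.78%), against 1.26% and 2.25% of the features that pass there (3.51% in all). The total of 7 moved when single fish were left out: to 15 for hypoxic replicate 3 (5.68% of all features), 11 for hypoxic replicate 4 (3.85%), 13 for control replicate 6 (4.96%) and 4 for control replicate 2 (3.73%). In a fit of the 12 post libraries alone it was 0 of the 108 members tested, against 2.28% of all features. With DESeq2 the numbers were 3 higher and 6 lower (4.76% of all features), and with voom 1 and 3 (3.27%). The totals with fish left out, with DESeq2 and with voom are over all 125 members. They include the 17 tested only because of their acute level and were not redone on the 108. Non-overlapping groups were found in 0 members. Of all features, hypoxic fish lay above all controls in 0.0244% and below in 0.0426% in CPM, and in 0.032% and 0.0472% with TMM scaling.

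TRINITY_DN2213_c4_g3 and TRINITY_DN17654_c2_g1 were the higher members with the smallest p. In TMM-scaled CPM the first ran from 1.00 to 6.44 in post controls (median 2.71) and from 1.37 to 12.6 in post hypoxic fish (median 6.405), a log2 fold change of 1.09 (SE 0.43, adjusted edgeR p 1.00). The second, with the same pattern, had 1.14 (SE 0.51). The lower members with the smallest p, TRINITY_DN21_c2_g1 and TRINITY_DN16582_c0_g3, had medians of 0.250 and 0.273 in post controls and 0.102 and 0.0644 in post hypoxic fish. Both are among the 17 members that passed the filter only through acute fish, and they rest on 92 and 84 counts over the 12 post libraries, so no fold change is given for them. The groups overlapped for all 4.

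Whether the acute to post difference was unequal in hypoxic and control fish was asked by the difference of the hypoxia effects. By edgeR 0 of 125 members passed (smallest adjusted p 1.00), as did 0 of all features tested; 6 were higher and 11 lower at an unadjusted p under 0.05, where 1.31% and 2.19% of all features were (3.5% in all). Of the 11 lower members, 5 were tested only because of their acute level. Among the 108 members that also pass on the post libraries, 6 were higher and 6 lower (11.1%), against 1.28% and 2.05% of the features that pass there (3.33% in all). These members are not all independent of each other. The higher ones include TRINITY_DN9603_c5_g1 and TRINITY_DN9603_c6_g1 (r = 0.964 over 12 acute libraries, without TMM scaling). The lower ones include TRINITY_DN5209_c1_g2 and TRINITY_DN361_c0_g1 (r = 0.981, likewise). The total of 17 was 10 without acute control replicate 3 (3.2% of all features) and 11 without post control replicate 5 (3.37%). It rose to 22 without post control replicate 1 (3.81%) and to 21 without post hypoxic replicate 3 (3.93%). DESeq2 (0.0213% of features called) and voom called 0 members, with 19 and 16 at an unadjusted p under 0.05 (4.14% and 6.73% of all features). The totals with fish left out, with DESeq2 and with voom include the members tested only because of their acute level. They were not redone on the 108. TRINITY_DN5209_c1_g1 had the smallest p, but it is among the 17 members that passed the filter only through acute fish: the 6 post controls held 63 counts of it and the 6 post hypoxic fish 25. No difference of effects is given for it. TRINITY_DN5209_c1_g2, which passed on the post libraries too, was 9.99-fold higher in acute than post controls and 48.8-fold higher in acute than post hypoxic fish by mean CPM without TMM scaling. In the fit with TMM factors, its post minus acute difference was -3.91 log2 units in controls and -5.95 in hypoxic fish. The difference of its effects was -2.04 log2 units (SE 0.62, adjusted edgeR p 1.00), which did not pass. Across all members the median ratio of acute to post mean CPM, without TMM scaling, was 4.22 among controls and 4.71 among hypoxic fish. The lowest ratios were 1.75 and 1.80. These ratios carry the shift of CPM in acute hypoxic fish given above. In the fit with TMM factors the median difference of effects was 0.07 log2 units over the members and -0.05 over all features tested. Members above 0, with a smaller acute to post difference in hypoxic fish, were 68 of 125 (54.4%, against 46.2% of all features above 0). The 68 include members tested only because of their acute level.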

How the data were processed

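Polyadenylated RNA of 24 muscle sections was sequenced. The deposited table holds estimated counts per assembly feature, per the file headers, not scaled between libraries; per the submitters' processing notes, Trimmomatic, kallisto and RSEM were used (versions not stated). How the assembly was made and annotated is not stated in those sources. Columns were matched to fish by library name. The members and lists were chosen with earlier results of these data known.

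CPM for the rule used full column totals. For tests, counts were rounded to whole numbers, features were filtered with filterByExpr of edgeR 4.0.16 (minimum count 10, minimum total 15; 65664 features and all 125 members were left), TMM factors were applied (0.592 to 1.41), and 4 group means were fitted to all 24 libraries with glmQLFit. The threshold was a Benjamini-Hochberg adjusted p of 0.05 over the 65664 features. DESeq2 1.42.0, limma 3.58.1 (voom with quality weights), other factors and filters, a replicate block and each library left out were alternatives; settings with no limit on the number of members were added after seeing the data. Replicates were treated as separate fish. Beyond species, time point and group, their titles give only a replicate number.

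Features were named by a rule: ranks 1 to 10, the 5 most abundant, those with the smallest p per contrast, the 3 components with most members, the last 3 ranks and the most and least variable. As 125 qualified, the last ranks replace ranks 148 to 150 of that rule, and no component neighbour met its part on opposite features. Totals come from PCR-amplified reads with no molecular identifiers named, so floors cover counting error only.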

Additional observations from a re-analysis of the deposited data

Results flagged for a closer look

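Of 132 group values examined for the named members and for 2 library measures, 10 held a fish far from the other 5 of its group. Chance gives about 1 in 20 for independent values that were not chosen for their spread. TRINITY_DN49842_c0_g1 and TRINITY_DN35358_c0_g1 were named because they were among the most variable in acute fish. Several named members also vary together or rest on few counts in post fish. The 10 can therefore not be set against that rate. In acute controls, TRINITY_DN49842_c0_g1 was at 22.6 CPM in replicate 4, against 5.45 to 11.53 CPM in the others, and TRINITY_DN35358_c0_g1 was at 31.05 CPM in replicate 1, against 5.15 to 10.6 CPM. In acute hypoxic fish, TRINITY_DN425_c0_g1 was at 32.3 CPM in replicate 1, against 15.98 to 21.1 CPM, and TRINITY_DN956_c0_g1 was at 36.3 CPM in the same fish, against 17.4 to 24.4 CPM. TRINITY_DN35358_c0_g1 was at 19.5 CPM in acute hypoxic replicate 6, against 4.60 to 7.98 CPM.

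In post controls, TRINITY_DN603_c2_g1 was at 0.193 CPM in replicate 5, against at most 0.0285 CPM, and TRINITY_DN37_c1_g1 was at 0.498 CPM in replicate 6, against at most 0.158 CPM. In post hypoxic replicate 2, TRINITY_DN603_c2_g1 was at 0.0843 CPM, against at most 0.0286 CPM, and TRINITY_DN2287_c0_g1 was at 0.421 CPM, against at most 0.158 CPM. TRINITY_DN425_c0_g3 was at 5.68 CPM in post hypoxic replicate 4, against 0.322 to 2.08 CPM in the others.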

How the results depend on the processing

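The counts of 0 members called were 0 in all 24 fits that left out 1 library, with DESeq2, with other scaling factors, with the stricter filter, at an adjusted p of 0.1 and in fits of a single time point. Limma voom called 3 members in the acute comparison. With no filter on low counts 5 were called in the acute, 2 in the post and 4 in the difference of effects. There 0.198%, 0.259% and 0.188% of the 487995 features tested were called, and the cause was not tested. The 5 and the 4 both include TRINITY_DN5209_c1_g1, TRINITY_DN5209_c1_g2 and TRINITY_DN361_c0_g1, which varied together. The first of these passed the main filter only through acute fish, so its difference of effects rests on few post counts. The 2 in the post comparison, TRINITY_DN2213_c4_g3 and TRINITY_DN17654_c2_g1, also varied together. With a replicate block 0 were called. A correlation above 0.1 was found in 1 of 6 acute and 3 of 6 post pairs of equal number. For 1 acute and 2 post hypoxic fish the best match among the controls was the one of equal number. Equal numbers were therefore read as names without pairing, though these correlations cannot exclude pairing. The library names of acute control and acute hypoxic fish also carry the same numbers. The rule chose 105 of the 125 members among 150 with TMM scaling (115 among 215 with no limit), 117 with a minimum of 1 CPM, 97 with 10 CPM, and 92 of the 108 components from summed counts. The 97 are the members whose own acute mean reached 10 CPM. With 1 CPM a member could be lost only through the limit of 150. Leaving out single libraries, the rule chose 125 to 149 features, 149 without acute hypoxic replicate 1, with 124 or 125 of the members among them. Leaving out a library can only loosen the separation, so a member could be lost only through its mean level. The number of members kept is therefore no test of the set. Mean log2 levels of the members in post fish moved to 2.29 in controls and 2.32 in hypoxic fish with a pseudocount of 1. The depth limits post levels below 1 CPM, which rest on few counts.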
